A study of Homo sapiens with 4 samples.

Results

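Aminoacyl-tRNA synthetases are the enzymes that join each amino acid to its transfer RNA (tRNA). The genes described here are 35 synthetase genes and 2 genes of scaffold proteins, 37 of the 64252 gene identifiers in the count table. They fall into 19 cytosolic genes, some of which also serve mitochondria, 16 mitochondrial genes, and the scaffold genes AIMP1 and AIMP2. The family was listed by gene symbol and was chosen by its fold changes in an earlier analysis of the same contrast. The fold changes, counts of calls and medians below are therefore a description of these genes and not a test of the family. Each symbol matched 1 Ensembl identifier.

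RNA was sequenced from 4 libraries of J.gamma1, a human line of T-cell acute lymphoblastic leukemia. It was derived from Jurkat and is known for its defect in phospholipase C gamma 1, which both groups carry. The control hairpin group (shNC) has 2 libraries, and the group with a hairpin against ELOVL5 (shELOVL5), an elongase of polyunsaturated fatty acids, has 2. The labels give neither the hairpin sequences nor whether more than 1 was used. Nor do they say that the libraries of a group are from separate cultures, so the standard errors (SE) and calls cover the spread between these libraries alone, and that spread may be technical.

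In the cytosol, synthetases charge tRNA for the ribosomes that make most cellular protein. A separate nuclear-encoded set is imported into mitochondria and charges the tRNA used by the mitochondrial ribosome. Several cytosolic synthetases sit in a multisynthetase complex held together by AIMP1, AIMP2 and EEF1E1, and many cytosolic synthetase genes are induced by ATF4, the transcription factor of the amino acid stress response. ATF4 with a C/EBP partner binds C/EBP-ATF response elements, which lie near the start of such genes.

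Sequences around the start sites are shown first, because the cytosolic genes with and without this element are set side by side below. A promoter of 250 bases before to 50 after the start was found for 32 of the 37 genes (RefSeq, GRCh38.p14), and not for LARS1, VARS1, YARS1, AARS2 and VARS2. The response element was searched as TGATGNAAN on both strands. Below are 30-base windows, read 5′ to 3′ in the direction of the gene, with the match or its reverse complement in capitals.
AARS1 (chr16:70289675-70289704, minus strand): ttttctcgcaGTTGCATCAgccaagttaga
CARS1 (chr11:3057407-3057436, minus strand): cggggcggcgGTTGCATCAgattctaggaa
MARS1 (chr12:57488053-57488082, plus strand): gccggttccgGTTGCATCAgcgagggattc
IARS1 (chr9:92293692-92293721, minus strand): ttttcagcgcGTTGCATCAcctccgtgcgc
TARS1 (chr5:33440956-33440985, plus strand): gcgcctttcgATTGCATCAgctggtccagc
NARS1 (chr18:57621803-57621832, minus strand): ctacgctctcTGATGCAACgccggaatcgc
GARS1 (chr7:30594834-30594863, plus strand): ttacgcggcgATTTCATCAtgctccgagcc
YARS2 (chr12:32756075-32756104, minus strand): tccacactgcTGATGGAAAaattaagttta

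The match lay within 34 bases of the start in 6 of the 7 cytosolic genes, and began 188 bases before it in AARS1. Of 16 cytosolic genes with a promoter in the table, 7 held a match (43.8%), against 4.45% of 27305 genes overall. Among 14 mitochondrial genes 1 did, YARS2, whose match began 197 bases before the start. The 7 cytosolic matches read TGATGCAA in every gene but GARS1. That form, picked out after the matches were seen, occurs in 1.08% of the 27305 genes. A match is a run of letters, and binding was not measured here.

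The E-box CACGTG, a site of MYC and related factors that reads the same on both strands, was searched in the same promoters. It occurs in 8.77% of the 27305 genes. It was found in 3 of 14 mitochondrial genes (MARS2, CARS2 and EARS2). Of 16 cytosolic genes 1 held it (IARS1), as did 1 of 2 scaffold genes (AIMP2). With so few genes these counts do not set a class apart. The windows below show it in capitals for the mitochondrial genes.
MARS2 (chr2:197705348-197705377, plus strand): gcgcctctcaCACGTGctgtcagaacgccg
CARS2 (chr13:110706499-110706528, minus strand): ctgggatgcaCACGTGcttcgctaacaggc
EARS2 (chr16:23557346-23557375, minus strand): gggagaagccCACGTGtgctattccatccc

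The cytosolic and mitochondrial genes for histidine, HARS1 and HARS2, are divergent neighbours on chromosome 5, and their RefSeq starts are separated by the 84 bases below. The stretch is shown on the HARS2 strand. In the expression data neither this pair nor the methionine pair, MARS1 and MARS2, separated clearly by compartment. Whether the stretch plays a part was not tested. In GENCODE 29 the spans of these genes overlap, so reads in the overlap can be split between them.
HARS1-HARS2 (chr5:140691371-140691454, plus strand): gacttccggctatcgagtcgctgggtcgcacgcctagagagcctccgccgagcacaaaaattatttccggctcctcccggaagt

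Total counts per library lay between 16254002 and 17338719. ELOVL5 was at 342 and 353 CPM (counts scaled to the effective size of the library) in shNC and at 71.8 and 70.0 CPM in shELOVL5. T-lineage markers were all detected, with a summed level of 1440 CPM in both shNC libraries and 1450 to 1480 CPM in shELOVL5. Single T-lineage markers differed, with 3 of 8 called lower (CD3D, CD247 and LCK) and 2 called higher (CD3E and CD3G). Among all tested genes 11.2% were called lower and 9.22% higher. The median log2 fold change of the 8 markers was -0.22. B-lineage markers summed to 40.4 to 47.7 CPM in shNC and 26.9 to 29.8 CPM in shELOVL5, mostly from CD79A, while MS4A1 had at most 5 counts in any library. Of the 4 myeloid markers 2 were at 0 in all libraries (LYZ and CSF1R), as were the erythroid markers HBB and ALAS2, and of the epithelial or fibroblast markers 2 (EPCAM and KRT19). The part of these T-lineage and B-lineage differences in the results below was not tested.

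Most calls among synthetase transcripts were of cytosolic genes, and all were lower in shELOVL5. Of 19 cytosolic genes 11 were called lower and none higher, where a call is an adjusted p under 0.05 over 17461 tested genes. Among all tested genes 11.2% were called lower, 9.22% higher and 20.4% in either direction. Of 16 mitochondrial genes 1 was called lower and none higher, and neither scaffold gene was called. Most mitochondrial genes had fewer counts than most cytosolic genes, so a change of the same size is harder to call in them. For instance, WARS2 at 0.25 (SE 0.174) was not called, while NARS1 at -0.24 (SE 0.0449) was. IARS2, with a higher level, was at 0.03 (SE 0.0528). The counts of calls are therefore not like for like between the classes. The median log2 fold change (shELOVL5 over shNC) was -0.35 for cytosolic genes, 0.02 for mitochondrial genes and 0.01 for all tested genes. By edgeR, no cytosolic gene was higher at an unadjusted p under 0.05 either, and 15 were lower, while 1 mitochondrial gene was higher and 1 lower. DESeq2 called 13 cytosolic genes lower and limma-voom 12, each with 1 mitochondrial gene lower, and neither tool called a synthetase gene higher. For the scaffold genes all 3 tools called 0, and edgeR also gave 0 at an unadjusted p under 0.05.

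All 37 genes passed the filter on low counts. The shELOVL5 libraries lay below both shNC libraries for 17 cytosolic genes and above them for none, against 30.1% and 30.0% of all tested genes. For mitochondrial genes they lay below in 4, above in 3, and overlapped in 9. In bulk RNA, less transcript per cell and fewer expressing cells cannot be told apart.

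**Figure D1:**
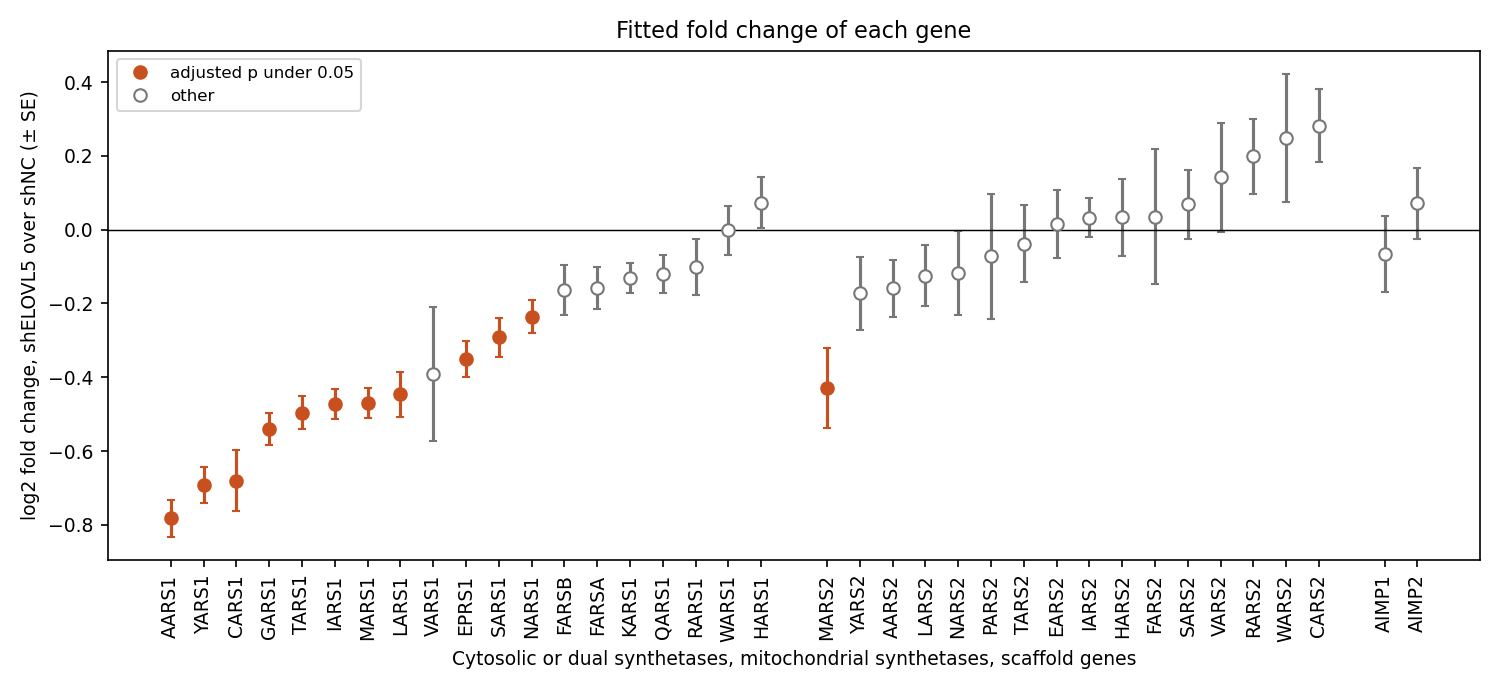
Fitted log2 fold change of each gene (shELOVL5 over shNC) with its SE, cytosolic genes on the left, mitochondrial in the middle and scaffolds on the right, with filled points for an adjusted p under 0.05. Cytosolic values reach from -0.78 to 0.07 and mitochondrial values from -0.43 to 0.28.

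As a share of the library, the 19 cytosolic genes took 0.405% and 0.396% of all counts in shNC and 0.318% and 0.316% in shELOVL5. The 16 mitochondrial genes took 0.0681% and 0.0699% in the control libraries and 0.0706% and 0.0700% in shELOVL5. The ratio of cytosolic to mitochondrial counts was 5.95 and 5.67 in shNC and 4.50 and 4.52 in shELOVL5. The 2 groups did not overlap in the cytosolic share or in the ratio, and the gap between groups was larger than that between replicates for both. For the mitochondrial share, shELOVL5 was above shNC by less than the gap between the shNC libraries.

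**Figure D2:**
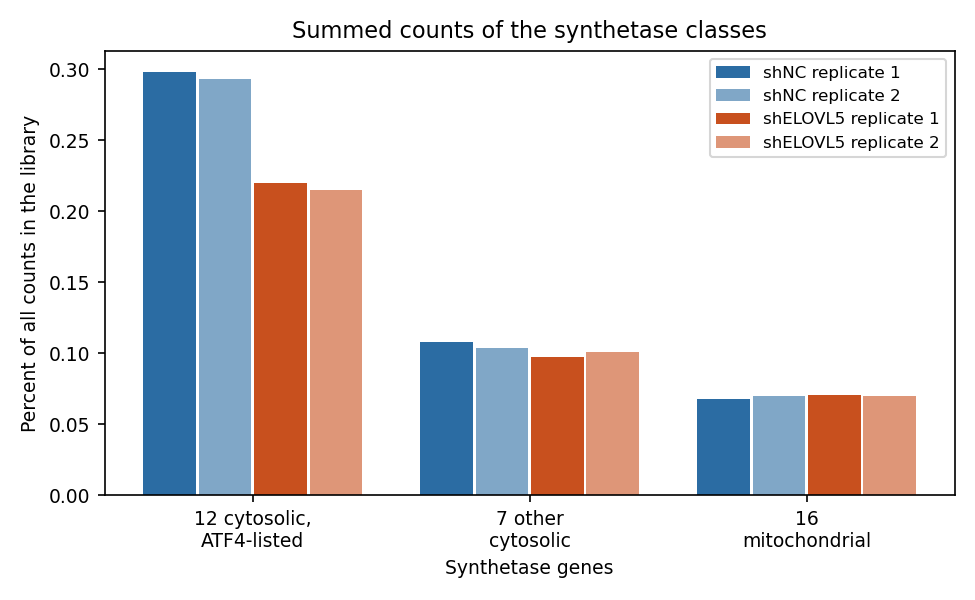
Summed counts of 3 sets of synthetase genes as a percent of all counts in each of the 4 libraries, with bars from 0. The 12 ATF4-listed cytosolic genes fall from 0.298% and 0.293% in shNC to 0.220% and 0.215% in shELOVL5. The 7 other cytosolic genes go from 0.108% and 0.104% to 0.0974% and 0.101%. The 16 mitochondrial genes stay between 0.0681% and 0.0706%. The ATF4 list was written with earlier results of these data known.

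The alanine, tyrosine and cysteine enzymes had the largest falls. AARS1 (ENSG00000090861, GRCh38 chromosome 16, 70252295 to 70289543), which charges alanine tRNA, was at 336 and 318 CPM in shNC and 196 and 184 CPM in shELOVL5. Its log2 fold change was -0.78 (SE 0.05), a 1.72-fold lower level. Both shELOVL5 libraries were far below both shNC libraries. YARS1 (ENSG00000134684, chromosome 1, 32775237 to 32818153), the tyrosine enzyme, was at 277 and 260 CPM in shNC and 165 and 167 CPM in shELOVL5, with a log2 fold change of -0.69 (SE 0.0486). CARS1 (ENSG00000110619, chromosome 11, 3000922 to 3057613), the cysteine enzyme, was at 124 and 107 CPM in shNC and 68.8 and 75.7 CPM in shELOVL5, with a log2 fold change of -0.68 (SE 0.0817). In all 3 genes both shELOVL5 libraries were below both shNC libraries, and CARS1 had the wider spread.

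The glycine and threonine enzymes came next. GARS1 (ENSG00000106105, chromosome 7, 30594681 to 30634033) serves both the cytosol and mitochondria, with no separate mitochondrial gene. It was at 307 and 314 CPM in shNC and 217 and 210 CPM in shELOVL5, with a log2 fold change of -0.54 (SE 0.0437). KARS1, the lysine enzyme, is the other gene that serves both compartments. It was at 269 and 273 CPM in shNC and 246 and 249 CPM in shELOVL5 and was not called (-0.13, SE 0.0419), though the groups did not overlap and DESeq2 and limma-voom called it lower. The difference between these dual-compartment genes was not tested. TARS1 (ENSG00000113407, chromosome 5, 33440696 to 33469539), the threonine enzyme, was at 232 and 233 CPM in shNC and 167 and 163 CPM in shELOVL5, with a log2 fold change of -0.50 (SE 0.0454).

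Of the 7 listed synthetases of the multisynthetase complex, 4 were called lower, against 11.2% of all tested genes. All 7 had both shELOVL5 libraries below both shNC libraries, against 30.1% of all tested genes. IARS1 (ENSG00000196305, chromosome 9, 92210207 to 92293756), the isoleucine enzyme, was at 409 and 416 CPM in shNC and 303 and 292 CPM in shELOVL5, with a log2 fold change of -0.47 (SE 0.0407). MARS1 (ENSG00000166986, chromosome 12, 57475445 to 57517569), the methionine enzyme, was at 367 and 363 CPM in shNC and 258 and 268 CPM in shELOVL5, also with -0.47 (SE 0.0415). The annotated span of MARS1 overlaps ARHGAP9 and the stress factor gene DDIT3 on the other strand, so reads shared with them cannot be told apart unless the counting used strand. LARS1 (ENSG00000133706, chromosome 5, 146113038 to 146182660), the leucine enzyme, was at 208 and 187 CPM in shNC and 149 and 141 CPM in shELOVL5, with a log2 fold change of -0.45 (SE 0.0604). EPRS1, a fused enzyme for glutamate and proline, was at 235 and 236 CPM in shNC and 191 and 178 CPM in shELOVL5, with a log2 fold change of -0.35 (SE 0.0488).

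The other complex members did not pass. The glutamine enzyme QARS1 had a log2 fold change of -0.12 (SE 0.0513) and the arginine enzyme RARS1 one of -0.10 (SE 0.0752), with KARS1 as above. The scaffold genes, which hold the complex together, had values near 0. AIMP1 was at 55.5 and 46.4 CPM in shNC and 50.2 and 47.1 CPM in shELOVL5 (-0.07, SE 0.103). AIMP2 was at 37 and 35.1 CPM in shNC and 38.1 and 37.8 CPM in shELOVL5 (0.07, SE 0.0963). The complex therefore held both genes called lower and genes with values near 0.

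Sorted by the fold of their catalytic domain, 6 of 10 class I and 5 of 9 class II cytosolic genes were called lower, with medians of -0.42 and -0.24. Of the mitochondrial genes, 1 of 9 in class I and 0 of 7 in class II were called. Of all tested genes 11.2% were called lower. The fused enzyme EPRS1 was counted in class I only, for both of its activities. Both folds were thus represented among the called cytosolic genes.

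Outside the complex, 7 of 12 cytosolic genes were called lower, against 11.2% of all tested genes. Among them were the serine enzyme gene SARS1 and the asparagine enzyme gene NARS1. SARS1 was at 187 and 178 CPM in shNC and 153 and 145 CPM in shELOVL5 (-0.29, SE 0.0534). NARS1 was at 240 and 245 CPM in shNC and 209 and 202 CPM in shELOVL5 (-0.24, SE 0.0449). NARS1 lost its call without shELOVL5 replicate 2, with a log2 fold change of -0.21. FARSA and FARSB encode the 2 subunits of the phenylalanine enzyme, and both had a log2 fold change of -0.16 (SE 0.0571 and 0.0677) and were not called. FARSA was called lower by DESeq2 and without shNC replicate 2 (-0.23).

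HARS1 and the tryptophan enzyme gene WARS1, which is also known as an interferon-induced gene, did not follow the class. Both had values near 0 and neither was called. HARS1 was at 91.4 and 83.1 CPM in shNC and 92.7 and 90.9 CPM in shELOVL5 (0.07, SE 0.0685). WARS1 was at 98.6 and 106 CPM in shNC and 106 and 97.7 CPM in shELOVL5 (0.00, SE 0.0667). These were the only cytosolic genes whose groups overlapped. The valine enzyme gene VARS1 was at 28.9 and 31.6 CPM in shNC and 27.6 and 18.5 CPM in shELOVL5 (-0.39, SE 0.182). One library decided its value, since it was -0.72 and called lower without shELOVL5 replicate 1 and -0.13 without shELOVL5 replicate 2. VARS1 and VARS2 lie in the major histocompatibility region of chromosome 6, where reads can be split with copies on alternate haplotypes, so their levels are uncertain.

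A list of 12 cytosolic genes that are commonly given as ATF4-induced held all 11 that were called lower. WARS1 was its exception. Of the 7 cytosolic genes not on it (FARSA, FARSB, HARS1, KARS1, QARS1, RARS1 and VARS1) edgeR called 0, with 4 lower at an unadjusted p under 0.05, DESeq2 called 2 lower and limma-voom 1. The median log2 fold change was -0.47 on the list and -0.13 off it. The list was written from general knowledge with earlier results of these data known. Of the 9 genes called lower that had a promoter entry, 7 held the response element, and EPRS1 and SARS1 did not. Of the 7 with a promoter that were not called, 0 did. ATF4 itself was at 503 and 506 CPM in shNC and 209 and 205 CPM in shELOVL5. Whether its lower level plays a part in these calls was not tested.

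**Figure D3:**
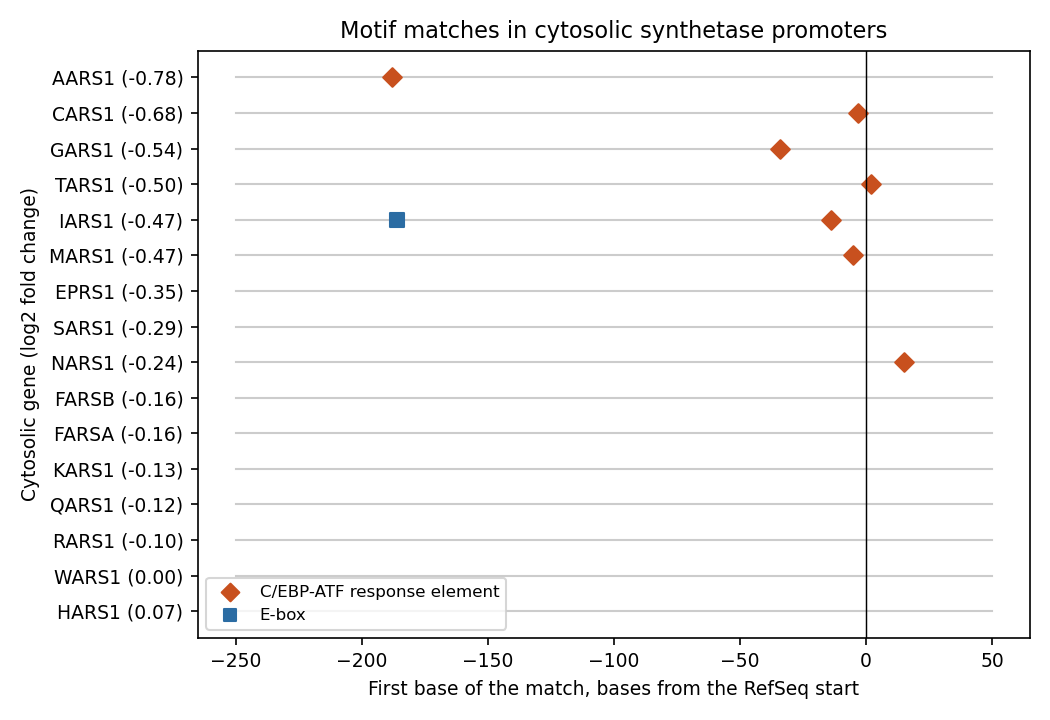
Position of the first base of each C/EBP-ATF response element (diamonds) and E-box (square) from the RefSeq start in the 16 cytosolic genes with a promoter in the table, ordered by log2 fold change, given in brackets. The 7 genes with a response element have log2 fold changes from -0.78 to -0.24.

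In the mitochondrial set, only MARS2 was called. MARS2 (ENSG00000247626, chromosome 2, 197705369 to 197708387), the mitochondrial methionine enzyme, was at 35.5 and 33.0 CPM in shNC and 26.4 and 24.5 CPM in shELOVL5, with a log2 fold change of -0.43 (SE 0.109). The groups did not overlap, but the call was lost without shNC replicate 1 (-0.38), shELOVL5 replicate 1 (-0.49) or shELOVL5 replicate 2 (-0.38). Both methionine genes were therefore called lower. CARS2, the mitochondrial cysteine enzyme, was at 45.4 and 39.0 CPM in shNC and 51.4 and 51.3 CPM in shELOVL5 (0.28, SE 0.0985). It was above shNC in both shELOVL5 libraries and was not called, but it was called higher without shNC replicate 1 (0.39) and by total counts alone (0.32).

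No other mitochondrial gene was called. WARS2, for tryptophan, was at 10.8 and 12.4 CPM in shNC and 13.8 and 13.7 CPM in shELOVL5 (0.25, SE 0.174). RARS2, for arginine, was at 30.4 and 29.7 CPM in shNC and 33.7 and 35.3 CPM in shELOVL5 (0.20, SE 0.102). YARS2, for tyrosine, was at 37 and 39.9 CPM in shNC and 34.4 and 33.8 CPM in shELOVL5 (-0.17, SE 0.0989). All 3 had groups that did not overlap, and none was called. Among all tested genes 30.1% lay below and 30.0% above without overlap. AARS2 (-0.16), LARS2 (-0.12), NARS2 (-0.12), PARS2 (-0.07) and TARS2 (-0.04) were on the lower side of 0. EARS2 (0.02), FARS2 (0.03), HARS2 (0.03), IARS2 (0.03), SARS2 (0.07) and VARS2 (0.14) were on the upper side.

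Cytosolic and mitochondrial genes for the same amino acid were then set side by side, with EPRS1 paired with both EARS2 and PARS2, and FARS2 with both FARSA and FARSB, so the pairs are not all distinct. In 16 of 17 pairs the cytosolic gene had the lower log2 fold change, with a median difference of -0.32. The widest pair was cysteine, where the log2 fold change of CARS1 minus that of CARS2 was -0.96. For alanine the difference was -0.62, for tyrosine -0.52 and for isoleucine -0.50. The valine difference, -0.53, rested on single libraries. Without shELOVL5 replicate 2 VARS1 was at -0.13 and VARS2 at -0.09, and without shELOVL5 replicate 1 they were at -0.72 and 0.33. Methionine was nearly level at -0.04, and histidine, at 0.04, was the pair in which the cytosolic gene was not lower. Without shNC replicate 2 the histidine order turned, with HARS1 at -0.00 and HARS2 at 0.06. The differences have no test of their own, because they come from the contrast that chose the family. For isoleucine, IARS2 was at 167 and 179 CPM in the control libraries and 180 and 173 CPM in shELOVL5, with overlap, while IARS1 was called lower.

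**Figure D4:**
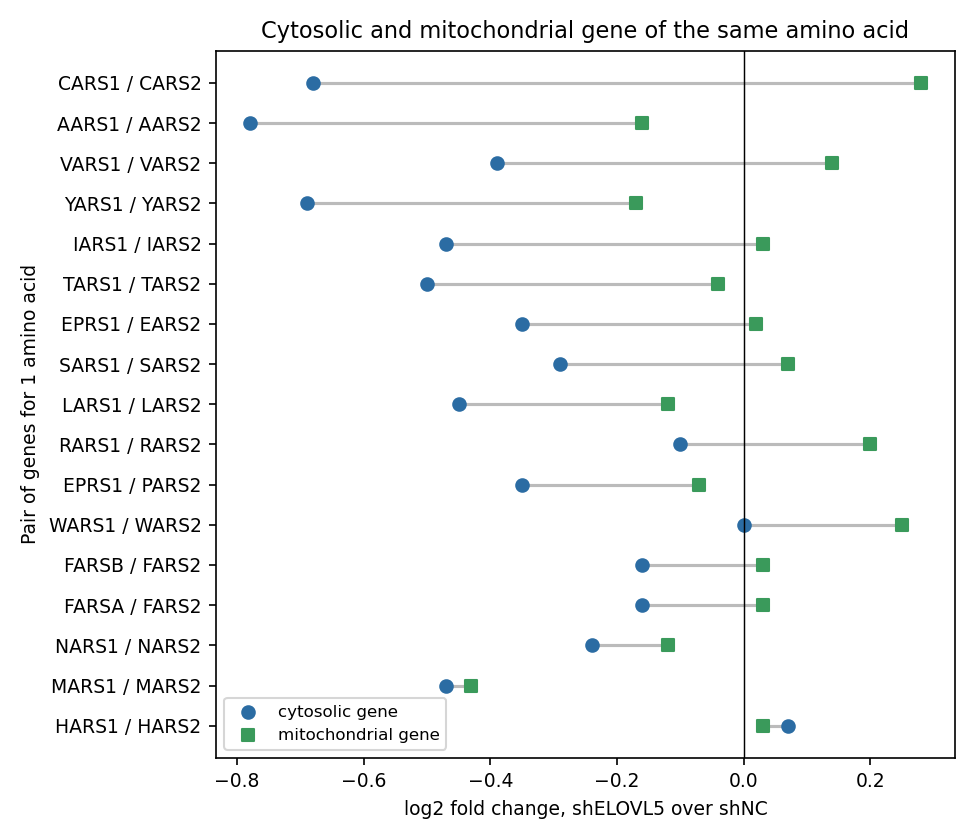
Log2 fold changes of the cytosolic gene (circle) and the mitochondrial gene (square) for the same amino acid in 17 pairs, ordered by their difference. The cytosolic point is on the left in all pairs but HARS1 and HARS2, and the difference runs from -0.96 to 0.04.

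Levels between genes were compared as CPM per kilobase of merged exons, a scale that understates genes with many alternative exons. In shNC the cytosolic genes had a median of 40.7 (4.97 to 139) and the mitochondrial genes one of 9.34 (2.22 to 41.5), against 5.15 for all tested genes. FARSA was highest at 139, then GARS1 at 74.8, AARS1 at 72.7, KARS1 at 66.7 and NARS1 at 59.3. GARS1 and AARS1 overlapped between shNC libraries. IARS2 stood apart among mitochondrial genes at 41.5, where the next, YARS2, was at 17.9, and 9 cytosolic genes were above it. FARSA was 5.10 to 5.38 times as high as FARSB in each of the 4 libraries, although the proteins form 1 enzyme.

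The order of the cytosolic genes shifted in shELOVL5. AARS1 went from 72.7 to 42.2 CPM per kilobase, below KARS1 at 60.9, GARS1 at 51.4 and NARS1 at 50.3. The ratio of IARS1 to IARS2 went from 1.34 to 0.948, and that of CARS1 to CARS2 from 2.85 to 1.47. In shNC 3 of 18 neighbouring cytosolic genes in the order overlapped between libraries, and in shELOVL5 6 did. For mitochondrial genes 5 of 15 and 7 of 15 overlapped, so much of their order is not resolved.

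**Figure D5:**
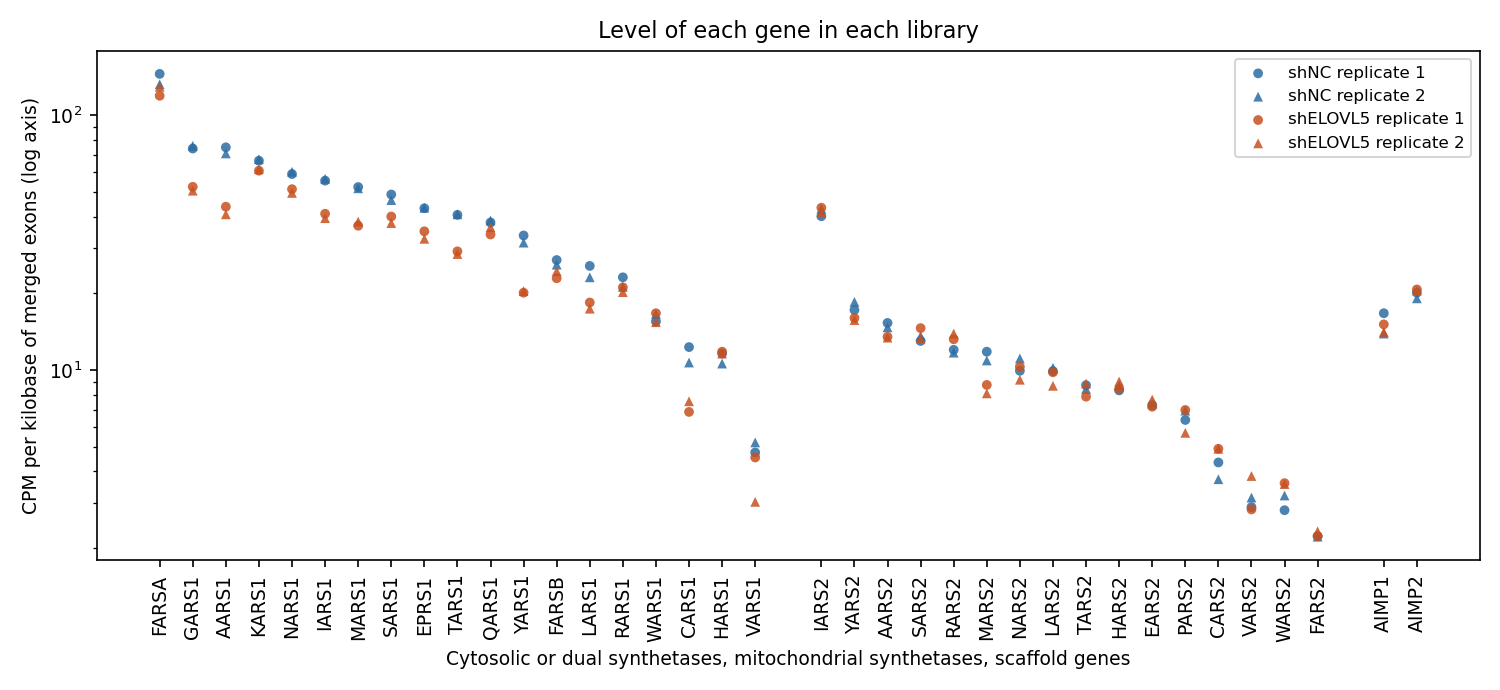
CPM per kilobase of merged exons (log axis) of each gene in each library, ordered by level in shNC within each class, blue for shNC and orange for shELOVL5. Orange lies below blue for cytosolic genes such as AARS1 (42.2 against 72.7) and the colours mix for mitochondrial genes such as IARS2 (42.4 against 41.5).

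Other genes of tRNA charging and of elongation were taken from lists that hold no member of the family. SEPSECS, which converts tRNA-bound phosphoserine to selenocysteine, fell, from 36.3 and 35.0 CPM in shNC to 21.7 and 25.1 CPM in shELOVL5 (log2 fold change -0.60, SE 0.115, edgeR adjusted p = 0.0042). TARS3, another cytosolic threonine enzyme, was at 13.5 and 11.5 CPM in shNC and 15.6 and 17.5 CPM in shELOVL5 (0.40, edgeR adjusted p = 0.13). The groups did not overlap for either gene, and TARS3 did not pass the test. Such a gap was found, below or above, in 30.1% and 30.0% of all tested genes.

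Charged tRNA is handed to elongation factor 1 in the cytosol and to TUFM in mitochondria. Of 6 such factor genes 3 were called lower, all of the cytosolic factor, against 11.2% of all tested genes. The median was -0.33. EEF1A1, which carries the charged tRNA to the ribosome, was at 7400 and 7320 CPM in shNC and 5210 and 5140 CPM in shELOVL5 (-0.51, SE 0.0260, edgeR adjusted p = 7.95e-07). EEF1G fell by 0.42 and EEF1B2 by 0.43 on the log2 scale. TUFM was at 215 and 216 CPM in shNC and 234 and 214 CPM in shELOVL5 (0.06, edgeR adjusted p = 0.506), and TSFM, its exchange factor, had -0.25 (edgeR adjusted p = 0.139).

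Among 10 genes of uncharged tRNA sensing and the ATF4 branch, 9 were tested, with a median of -0.25. Of these 4 were called lower, namely ATF4, TRIB3, CEBPB and DDIT3, against 11.2% of all tested genes. TRIB3, a pseudokinase that binds ATF4, fell by 1.82 and DDIT3, a stress-induced C/EBP family factor, by 0.90 on the log2 scale. IMPACT, an inhibitor of GCN2 activation, had 0 counts in all 4 libraries. EIF2AK4, which encodes GCN2, the kinase that senses uncharged tRNA, was at 80.2 and 87.9 CPM in shNC and 89.8 and 103 CPM in shELOVL5 (0.20, edgeR adjusted p = 0.113). GCN1, its partner, was at 205 and 211 CPM in shNC and 208 CPM in both shELOVL5 libraries. The C/EBP partner gene CEBPB was at 57.0 and 57.3 CPM in shNC and 24.9 and 31.4 CPM in shELOVL5 (-1.02, SE 0.115, edgeR adjusted p = 0.000161), while CEBPG, another partner gene, had 0.11 (edgeR adjusted p = 0.311).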

How the data were processed

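Read counts per Ensembl gene identifier were used as the authors deposited them, as whole numbers with no normalization. Per the submitters' processing notes, which give no roles or order, HISAT2 2.2.0, StringTie and hg38 were used. How reads were assigned to genes, with which annotation and whether by strand, is not stated in the sources used here. Of the 37 genes, 14 overlap another protein coding gene in GENCODE 29 (GRCh38), which also gave coordinates and exon lengths. Libraries were grouped by title. The fit used edgeR 4.0.16 in R 4.3.3: filterByExpr (minimum count 10), TMM, and a robust two-sided quasi-likelihood test with group as the only term, across all genes, with Benjamini-Hochberg adjustment over 17461 genes and a threshold of 0.05. CPM used TMM-scaled library sizes. The fit was tested on simulated data. The alternatives were 13 other settings, including DESeq2 1.42.0 and limma 3.58.1. The rule for values in every library took the 8 cytosolic and 5 mitochondrial genes with the largest log2 fold changes, both scaffolds, genes that went against their class, and up to 4 genes per further list with the smallest p. EPRS1, SARS1, NARS1, KARS1, VARS1, IARS2, TUFM, EIF2AK4, GCN1, CEBPG and IMPACT were added after their values were seen. The members and lists were chosen with earlier results of these data known. Replicate numbers do not pair the libraries by any label. Values of some genes on the further lists are not reported here.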

Additional observations from a re-analysis of the deposited data

How the results depend on the processing

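The 13 alternatives kept 8 of the 11 cytosolic calls in every case, namely AARS1, CARS1, GARS1, IARS1, LARS1, MARS1, TARS1 and YARS1. Against a 1.2-fold change EPRS1, SARS1 and NARS1 lost theirs, which left 8 cytosolic and 0 mitochondrial genes lower, with 641 genes lower and 408 higher overall. With 1 library left out, 10 to 12 cytosolic genes were lower and 0 higher, 0 to 1 mitochondrial genes were lower and 0 to 1 higher, and overall 1176 to 1616 genes were lower and 696 to 1347 higher. By total counts alone 1 mitochondrial gene, CARS2, was higher, with 1674 genes lower and 1933 higher overall. With no low-count filter 31428 genes were tested, of which 899 were higher and 1344 lower. WARS1 changed sign by total counts alone (0.03), with a filter of 1 CPM in 2 libraries (0.00) and by limma-voom (0.00). With 1 library left out, the sign changed for WARS1 (-0.07 to 0.06), HARS1 (-0.00 to 0.14), HARS2 (-0.01 to 0.07), EARS2 (-0.03 to 0.05), IARS2 (-0.02 to 0.08), PARS2 (-0.24 to 0.07), SARS2 (-0.01 to 0.13), TARS2 (-0.13 to 0.04), VARS2 (-0.09 to 0.33) and AIMP1 (-0.20 to 0.07), none of which was called. Leaving out 1 library leaves its group with 1, which is assumed to vary like the other group. The cause was not tested. With a replicate block 11 cytosolic and 1 mitochondrial genes were lower, as without it, and 1902 genes were lower and 1551 higher overall; same-numbered libraries did not deviate together (correlation -0.00564). None of the 37 genes had a second identifier among the 40995 paired with a symbol. Summing identifiers of 1 symbol therefore changed none of their calls. Copies that carry no symbol could not be added by this setting. Libraries of 1 group differed by a median of 0.0771 (cytosolic) and 0.0933 (mitochondrial) on the log2 scale, which limits what 2 libraries per group can resolve.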
